A study of Homo sapiens with 21 samples.

Results

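BTG1, BTG2, BTG3, TOB1 and TOB2 encode the BTG and TOB proteins, a family of small proteins that slow cell division. They were followed on gene expression arrays of MCF10A, an immortalised, non-tumorigenic line of human mammary epithelial cells, over a time course of epidermal growth factor (EGF). The 5 genes were chosen by name, through the probesets that the platform annotation gives to only 1 of them, and they are 5 of the 16614 genes tested. BTG4, which belongs to the same family, had 9 probesets on the array with mean log2 signals between 4.26 and 5.19, and only 1 of them passed the filter on dim probesets, so it was not tested.

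Low-passage cells were grown without EGF, starved in medium with horse serum, and then given EGF at 20 ng/ml. They were harvested at 20, 40, 60, 120, 240 or 480 min, and the 0 min cultures went through the same starvation and got no EGF. Each time had 3 cultures and 1 array per culture, named A, B and C, so the set held 21 arrays in 7 groups. There were no untreated arrays at the later times, so EGF and time since the start of the experiment cannot be told apart. All cells are 1 cell line. All 7 markers of basal mammary epithelium that were checked had a median signal above the filter, as did 3 of 6 luminal, 5 of 6 fibroblast and 1 of 4 blood cell markers. In log2 signal these medians were 9.02 to 12.4 for basal and 4.53 to 6.68 for luminal markers. They were 4.51 to 7.22 for fibroblast and 4.43 to 5.22 for blood cell markers. The filter, 5.18, was the median of all probesets, so passing it does not by itself show expression.

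BTG and TOB proteins carry a shared amino-terminal domain that binds the deadenylases CNOT7 and CNOT8, and through them they bring the CCR4-NOT complex to mRNAs, whose poly(A) tails are then shortened. TOB proteins also carry motifs that bind the poly(A)-binding protein PABPC1. BTG2 is a target gene of p53 and is also known as an immediate early gene of growth factor signalling under its mouse name Tis21. BTG1 is a known target of FOXO factors and is high in resting cells.

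Promoter windows are shown for BTG1, BTG2, TOB1 and TOB2, the 4 genes past the F-test over the time course, so that the sites searched for can be seen beside the time courses. Each is the 250 bases before a gene start in RefSeq on build GRCh38.p14, read 5′ to 3′ on the gene's strand, with the motif matches in capitals. The window of BTG2 is chr1:203305269-203305518 on the plus strand, that of BTG1 chr12:92145847-92146096 on the minus strand, that of TOB1 chr17:50866355-50866604 on the minus strand, and that of TOB2 chr22:41446802-41447051 on the minus strand.
BTG2: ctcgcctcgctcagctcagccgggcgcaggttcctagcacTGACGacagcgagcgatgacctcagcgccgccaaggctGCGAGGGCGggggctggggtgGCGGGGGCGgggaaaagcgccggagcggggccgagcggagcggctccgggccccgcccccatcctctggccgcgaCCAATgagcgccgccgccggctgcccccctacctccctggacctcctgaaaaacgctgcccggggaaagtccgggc
BTG1: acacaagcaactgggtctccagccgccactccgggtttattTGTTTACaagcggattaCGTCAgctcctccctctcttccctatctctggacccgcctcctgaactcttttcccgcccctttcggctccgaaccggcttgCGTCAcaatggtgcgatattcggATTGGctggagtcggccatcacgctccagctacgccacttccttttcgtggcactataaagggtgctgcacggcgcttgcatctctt
TOB1: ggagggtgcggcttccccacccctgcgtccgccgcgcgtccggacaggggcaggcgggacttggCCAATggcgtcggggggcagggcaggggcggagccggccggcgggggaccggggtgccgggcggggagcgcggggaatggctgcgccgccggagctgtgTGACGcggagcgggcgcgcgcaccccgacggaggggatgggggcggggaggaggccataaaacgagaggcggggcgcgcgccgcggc
TOB2: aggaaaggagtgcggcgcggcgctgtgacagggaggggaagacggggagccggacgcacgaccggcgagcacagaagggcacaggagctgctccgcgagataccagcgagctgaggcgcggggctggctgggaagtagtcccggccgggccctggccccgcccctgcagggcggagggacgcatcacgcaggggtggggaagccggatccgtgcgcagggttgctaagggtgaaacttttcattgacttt

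The capitals mark matches on either strand to the motifs searched: the full cAMP response element (TGACGTCA) and its core (TGACG, which lies within the full site), the AP-1 site (TGANTCA), the EGR site (GCGNGGGCG), the FOXO site (TGTTTAC), the E-box (CACGTG), the CCAAT box (CCAAT), the CArG box and the p53 decamer. The BTG2 window held 2 EGR sites, at positions -172 to -164 and -151 to -143 before the start, with 1 core of a cAMP response element and 1 CCAAT box. EGR sites occurred in 8.41% of the 35116 promoter windows of the same length, cores of cAMP response elements in 21.2% and CCAAT boxes in 32.0%. The BTG1 window held 1 FOXO site at -209 to -203, which 2.98% of windows had, with 2 cores of cAMP response elements and 1 CCAAT box. The TOB1 window shown held 1 core of a cAMP response element and 1 CCAAT box. The window of another TOB1 start (chr17:50867979-50868228), the BTG3 window (chr21:17612902-17613151) and the TOB2 window held no match to these letters. Full cAMP response elements were in 1.65% of all windows, AP-1 sites in 6.57%, E-boxes in 6.34%, CArG boxes in 1.16% and p53 decamers in 5.57%. The share of G and C was 56.4% for BTG1, 74.8% for BTG2, 78.4% for BTG3, 80.4% for the TOB1 window shown, 38.4% for the other TOB1 window and 68.4% for TOB2, against a median of 58.0% over all windows. A match in these letters is a description and not a bound site.

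BTG2 and TOB1 were lowest at 120 min, when TOB2 was highest, BTG1 was lowest at 480 min, and the gene value of BTG3 did not pass the test at any time. A gene value here is the median, per array, of log2(intensity + 16) over the gene's kept probesets, and a change is the difference of means over 3 arrays at the EGF time and at 0 min. In limma's F-test over the 6 EGF times, BTG2 (adjusted p = 2.4e-06), TOB1 (4.3e-05), TOB2 (1.5e-05) and BTG1 (0.047) passed and BTG3 (0.79) did not, against 27.5% of all genes. The F-test call of BTG1 was lost in 18 of 21 refits without 1 array (adjusted p = 0.019 to 0.11) and under 4 other alternatives, and BTG3 passed under 6 alternatives, among them the mean of its probesets in place of the median (adjusted p = 5.2e-05).

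At 20 and 40 min no gene of the 5 passed limma's test against 0 min, and 2 of them at each time had an unadjusted p under 0.05 (BTG2 and TOB1 at 20 min, BTG2 and TOB2 at 40 min). Of all genes, 0.981% were called at 20 min and 2.23% at 40 min, and 20% and 11.8% had an unadjusted p under 0.05. At 60 min TOB1 and TOB2 were called higher, against 4.82% of all genes. At 120 min TOB2 was called higher (11.2% of all genes were) and BTG2 and TOB1 lower (3.21%). At 240 min TOB2 alone was called, higher, as were 13.5% of all genes. At 480 min TOB2 was called higher (15.5% of all genes) and BTG1 and BTG2 lower (7.11%). Counted by arrays instead, the 3 EGF arrays did not overlap the 3 arrays of 0 min for 1 of the 5 genes at 20 min (16.9% of all genes), 1 at 40 min (16.5%), 3 at 60 min (23.9%), 3 at 120 min (25%), 2 at 240 min (37.5%) and 3 at 480 min (34.3%).

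**Figure D1:**
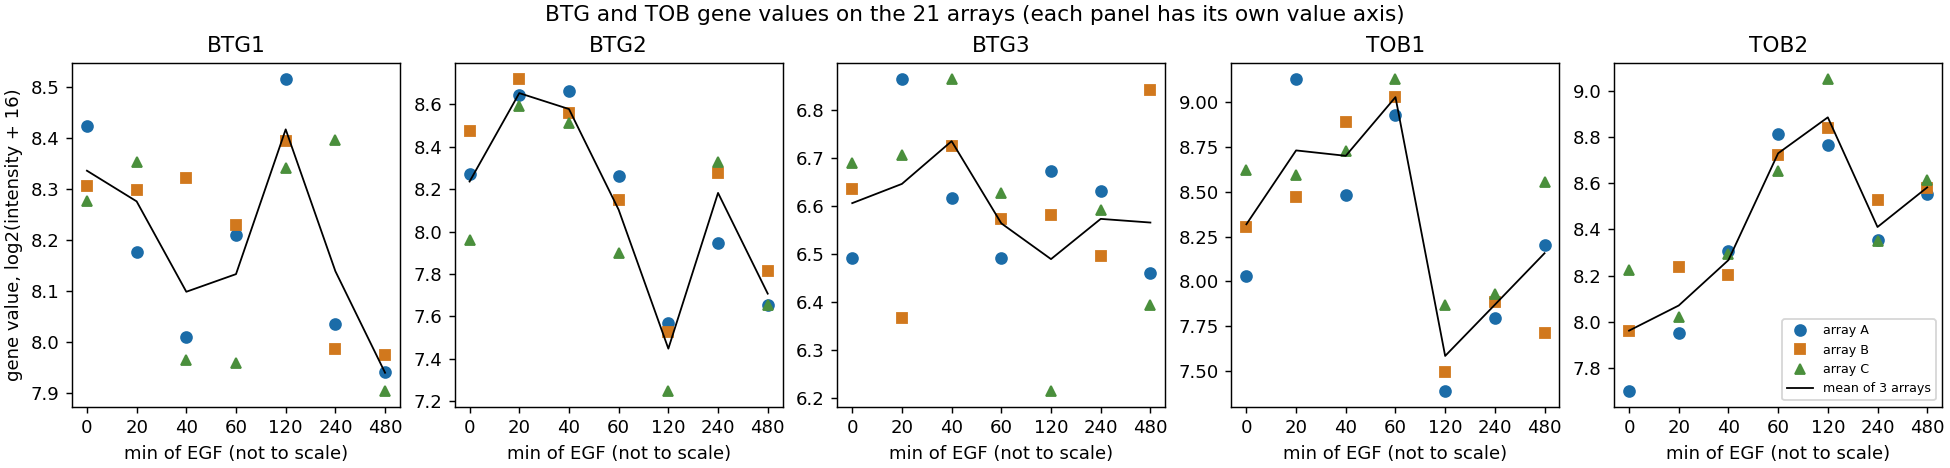
Gene value, log2(intensity + 16), of each gene (vertical axis, a separate scale per panel) against min of EGF (horizontal axis, evenly spaced). Points are the arrays A, B and C and the line joins their means. BTG2 and TOB1 dip at 120 min, with array values of 7.25 to 7.57 and 7.39 to 7.87, and TOB2 peaks there at 8.76 to 9.05.

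BTG2 fell sharply at 120 min of EGF and was back near its starting level at 240 min. Its values on arrays A, B and C were 8.27, 8.48 and 7.96 at 0 min, 8.65, 8.72 and 8.59 at 20 min, and 8.66, 8.56 and 8.51 at 40 min. All 6 of the 20 and 40 min arrays were above the highest 0 min array, but the changes of 0.42 ± 0.14 and 0.34 ± 0.14 did not pass the test (SE, n = 3 each, adjusted p = 0.13 and 0.28). The values were 8.26, 8.15 and 7.90 at 60 min and 7.57, 7.52 and 7.25 at 120 min. Every 120 min array was below every array of 0, 20, 40, 60, 240 and 480 min. The change at 120 min was -0.79 ± 0.14 (adjusted p = 0.00028, 95% interval -1.07 to -0.51), a level 1.73-fold lower, and it was the 56th lowest of the 16614 genes.

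At 240 min BTG2 stood at 7.94, 8.28 and 8.33, and at 480 min at 7.65, 7.81 and 7.65. The 240 min arrays overlapped those of 0 min (change -0.05 ± 0.14, adjusted p = 0.84, 95% interval -0.33 to 0.23), and the 480 min arrays lay below all of them. The change at 480 min was -0.53 ± 0.14 (adjusted p = 0.0065), and without array B of 0 min it was -0.41 and no longer passed (adjusted p = 0.051). From 60 to 120 min BTG2 fell by 0.66 (adjusted p = 0.0055), where 1.3% of all genes were called lower, and the call was lost when the fit held only the arrays of these times (adjusted p = 0.054). From 120 to 240 min it rose by 0.73 (adjusted p = 0.0039), the 12th highest change of all genes, where only 0.445% were called higher. Ordered by mean level, the times ran 20, 40, 0, 240, 60, 480 and 120 min from high to low, and no neighbours in that order differed past the test.

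All 6 kept probesets of BTG2 were below their 0 min mean at 120 min, with changes between -1.93 and -0.42. In the fit over 261183 probesets, 4 of the 6 were called lower, against 2.68% of all probesets. The largest change was that of probeset 2375673, with a mean of 8.11 at 120 min and 10.03 at 0 min. The smallest was that of probeset 2375665, with 7.34 at 120 min and 7.77 at 0 min. From 60 to 120 min 4 of the 6 were called lower (0.683% of all probesets), and from 120 to 240 min 3 of the 6 were called higher (0.138%), with all 6 above 0 (0.52 to 1.79). At 480 min 3 of the 6 were called lower (6.1% of all probesets). These probesets read the same RNA and are not replicates of each other.

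The dip was larger once the differences in brightness between probesets were removed. The 2 brightest probesets had the largest changes, and the median lay on dimmer ones, so the genes were fitted again with each probeset centred on its own mean over the 21 arrays before the median was taken, an alternative chosen after the data were seen. On this scale, where 0 is the gene's mean over the course, BTG2 was at -1.33, -1.30 and -1.14 on the 120 min arrays, against 0.18, 0.38 and 0.12 on the 0 min arrays. The 120 min change was -1.49 ± 0.10 (adjusted p = 2.8e-10), a level 2.80-fold lower and the 4th lowest of all genes, where 5.36% were called lower. The rise from 120 to 240 min was 1.42 (adjusted p = 9.9e-09), the highest of all 16614 genes, of which 0.795% were called higher. The fall from 60 to 120 min was -1.27 (adjusted p = 1.5e-08), where 1.74% of genes were called lower. The centred level at 480 min was above that at 120 min by 1.04 (adjusted p = 2.1e-07), where 4.34% of genes were called higher. At 20 min the centred change of 0.40 ± 0.10 passed (adjusted p = 0.041), as did 1.02% of all genes in that direction, and the 3 arrays at 0.62, 0.77 and 0.51 were above all arrays of 0 min. At 40 min the centred change was 0.17 ± 0.10 and did not pass (adjusted p = 0.49). Its arrays overlapped those of 0 min, and only 3 of the 6 kept probesets were above 0 at 40 min.

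**Figure D2:**
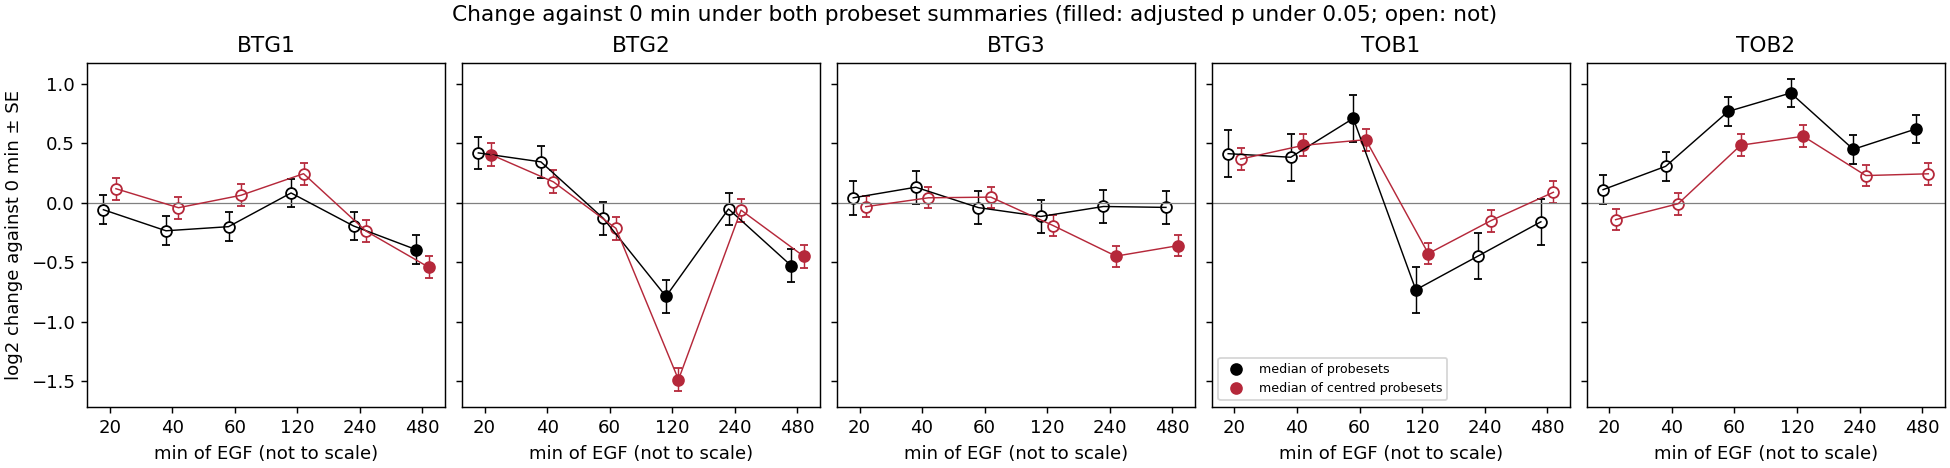
Log2 change against 0 min (vertical axis) with its SE, at each EGF time in min (horizontal axis, evenly spaced), for the median of probesets in black and of centred probesets in red. Filled points passed at an adjusted p under 0.05 and open points did not. BTG2 at 120 min is at -0.79 in black and -1.49 in red, and BTG3 at 240 min is at -0.03 in black and -0.45 in red.

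BTG1 was at its lowest 480 min after EGF. Its values on arrays A, B and C were 8.42, 8.31 and 8.28 at 0 min, 8.18, 8.30 and 8.35 at 20 min, and 8.01, 8.32 and 7.96 at 40 min. At 60 min they were 8.21, 8.23 and 7.96, and at 120 min 8.52, 8.39 and 8.34. The 60 min arrays were all below those of 0 min, by a mean of -0.20 that did not pass the test (adjusted p = 0.36), and the 120 min arrays overlapped them. At 60 min, though, 6 of the 8 kept probesets were above 0. With centred probesets the 60 min change was 0.06 (adjusted p = 0.76), and its arrays overlapped those of 0 min.

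At 240 min BTG1 was at 8.04, 7.99 and 8.39, overlapping 0 min, and at 480 min it was at 7.94, 7.98 and 7.90, below every array of 0, 20, 120 and 240 min. The change at 480 min was -0.40 ± 0.12 (SE, n = 3 each, adjusted p = 0.02), a level 1.32-fold lower. Against 120 min, the time of its highest mean, the 480 min level was lower by a log2 difference of -0.48 (adjusted p = 0.016). This pair was picked by its means, and the adjustment over genes does not allow for that choice. The call against 0 min was lost without array A of 0 min (-0.35, adjusted p = 0.074), without array A of 480 min (-0.40, 0.057) and without array C of 480 min (-0.38, 0.069). From high to low the times ran 120, 0, 20, 240, 60, 40 and 480 min, with no neighbours that differed past the test.

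Of the 8 kept probesets of BTG1, all were below 0 at 480 min (-0.75 to -0.18) and 4 were called lower, against 6.1% of all probesets. The largest change was that of probeset 3465448, with means of 10.00 at 480 min and 10.75 at 0 min, and the smallest that of probeset 3465456, with 8.55 at 480 min and 8.73 at 0 min. At 120 min 7 of the 8 were above 0 and 2 were called higher, against 7.38% of all probesets. With centred probesets the 480 min change was -0.54 ± 0.09 (adjusted p = 0.00012), where 9.89% of genes were called lower, and the 3 arrays at -0.46, -0.55 and -0.40 were below all others of the course. The centred fall from 120 to 240 min, -0.48, also passed (adjusted p = 0.0037), with 2.14% of genes called lower.

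BTG3, also named ANA, encodes another family member that binds CNOT7 and CNOT8. Its gene value stayed between 6.21 and 6.87 on all 21 arrays, with time means of 6.49 (120 min) to 6.74 (40 min). The changes against 0 min lay between -0.12 and 0.13 with an SE of 0.14, none passed limma's test and none had an unadjusted p under 0.05. The arrays of every EGF time overlapped those of 0 min. The widest 95% interval bounds of these changes were -0.41 and 0.42.

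Several probesets of BTG3 were called lower at 240 and 480 min although the gene value was not. The 13 kept probesets fall into 2 runs of identifiers, 6 from 3915513 to 3915527 that were dim (means of 5.43 to 6.58) and 7 from 3926093 to 3926110 that were mostly brighter (6.04 to 11.4), and the median over all 13 was close to probeset 3915525 (6.56 at 0 min, 6.49 at its lowest time mean). At 240 min 11 of the 13 were below 0 and 5 were called lower, against 4.86% of all probesets, and at 480 min 12 were below 0 and 4 were called lower (6.1%). The largest change at 240 min was that of probeset 3926094, with 7.39 at 240 min and 8.32 at 0 min, while the brightest probeset, 3926102, was at 11.49 at 240 min and 11.46 at 0 min.

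Taken alone, the median of the brighter run was 7.47 ± 0.13 at 240 min and 8.16 ± 0.07 at 0 min (SD, n = 3), with arrays at 7.34 to 7.59 at 240 min and at 8.12 to 8.24 at 0 min, which did not overlap. The change of -0.69 passed (adjusted p = 0.0024). The dimmer run was 5.70 ± 0.05 at 240 min and 6.17 ± 0.16 at 0 min, a change of -0.47 (adjusted p = 0.0091), and it was lower at 120 min (-0.48, adjusted p = 0.0095) and at 480 min (-0.61, adjusted p = 0.00098) as well. Both splits were made after the data were seen. With all 13 probesets centred, BTG3 was at -0.33, -0.28 and -0.35 on the 240 min arrays, against 0.14, 0.15 and 0.11 on the 0 min arrays. That change, -0.45 ± 0.09, passed (adjusted p = 0.00059) where 9.26% of genes were called lower, and so did the one at 480 min, -0.36 (adjusted p = 0.0035).

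**Figure D3:**
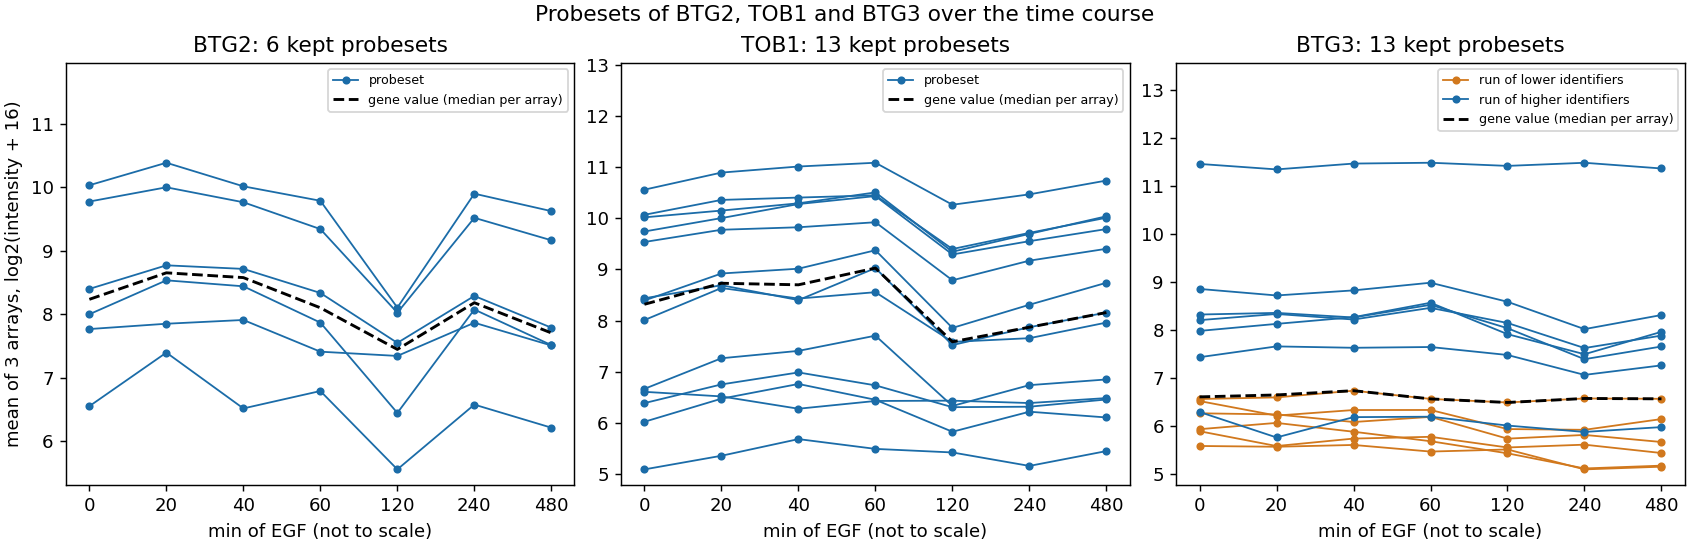
Mean of 3 arrays, log2(intensity + 16) (vertical axis), of each kept probeset of BTG2, TOB1 and BTG3 against min of EGF (horizontal axis, evenly spaced), with the gene value dashed. In BTG3 the colours give the 2 runs of identifiers. All 6 BTG2 probesets are below their 0 min level at 120 min, and the dashed line of BTG3 follows a probeset near 6.6, the brightest of the run of lower identifiers.

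TOB1 was higher at 60 min and lower at 120 min than at 0 min. Its values on arrays A, B and C were 8.03, 8.30 and 8.62 at 0 min, 9.13, 8.47 and 8.59 at 20 min, and 8.48, 8.89 and 8.73 at 40 min. Those of 20 and 40 min overlapped the wide spread of 0 min, and their changes of 0.41 and 0.38 (SE 0.20) did not pass (adjusted p = 0.25 and 0.46). The values were 8.93, 9.02 and 9.13 at 60 min and 7.39, 7.50 and 7.87 at 120 min. All 60 min arrays were above, and all 120 min arrays below, those of 0 min.

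The TOB1 change was 0.71 ± 0.20 at 60 min (adjusted p = 0.034), a level 1.63-fold higher, and -0.73 ± 0.20 at 120 min (adjusted p = 0.013), a level 1.66-fold lower and the 75th lowest of all genes. From 60 to 120 min it fell by 1.44 ± 0.20 (adjusted p = 7.2e-05), a level 2.71-fold lower at 120 min and the 16th lowest change of all genes. The 60 min call was lost in 5 of the 6 refits without 1 array (adjusted p up to 0.17), with dim probesets kept (0.061) and with an array index as a covariate (0.12), which averaged 1.31 ± 0.03 at 60 min and 1.24 ± 0.02 at 0 min (SD). The 120 min call was lost without array C of 0 min (-0.58, adjusted p = 0.078) or array B of 120 min (-0.69, adjusted p = 0.056).

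At 240 min TOB1 was at 7.80, 7.89 and 7.93, below every 0 min array, by a change of -0.45 that did not pass (adjusted p = 0.12). At 480 min it was at 8.20, 7.71 and 8.55, spread across the 0 min range (change -0.16, adjusted p = 0.63, 95% interval -0.57 to 0.25). From high to low the times ran 60, 20, 40, 0, 480, 240 and 120 min, and no neighbours differed past the test.

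Of the 13 kept TOB1 probesets, 12 were above 0 at 60 min and 4 were called higher (2.94% of all probesets were), and 12 were below 0 at 120 min, with 4 called lower (2.68%). From 60 to 120 min 9 of the 13 were called lower (0.683% of all probesets), with a median change of -1.05. At 120 min the largest change was that of probeset 3762477, with 7.52 at 120 min and 8.44 at 0 min, and the one that moved furthest the other way was 3762486, a dim probeset with 5.42 at 120 min and 5.09 at 0 min. The means of probeset 3762477 at 60, 240 and 480 min (9.03, 7.87 and 8.16) were also those of the gene value. With centred probesets TOB1 was at 0.45, 0.36 and 0.37 on the 60 min arrays, against -0.09, -0.16 and -0.14 on the 0 min arrays. The centred changes were 0.48 at 40 min (adjusted p = 0.0029; 2.14% of genes called higher), 0.53 at 60 min (adjusted p = 0.00059; 5.71%) and -0.43 at 120 min (adjusted p = 0.0019). The one at 120 min was a level 1.35-fold lower and the 290th lowest of all genes, of which 5.36% were called lower. The centred fall from 60 to 120 min was -0.96 (adjusted p = 4.3e-07), a level 1.94-fold lower and the 36th lowest change (1.74% of genes called lower). On the centred scale the arrays of 20, 40, 60, 120 and 240 min did not overlap those of 0 min. The centred changes at 20 min (0.37, adjusted p = 0.058) and at 240 min (-0.15, adjusted p = 0.26) did not pass.

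TOB2, whose protein like TOB1 binds both the deadenylases and PABPC1, was called higher from 60 min on. Its values on arrays A, B and C were 7.70, 7.96 and 8.22 at 0 min, 7.95, 8.24 and 8.02 at 20 min, and 8.31, 8.20 and 8.29 at 40 min. The 20 and 40 min arrays overlapped the highest 0 min array, and their changes of 0.11 and 0.30 (SE 0.12) did not pass (adjusted p = 0.66 and 0.28). With centred probesets these changes were -0.14 and -0.01 (adjusted p = 0.33 and 0.98), and 6 of the 7 kept probesets were below 0 at 20 min. It was at 8.81, 8.72 and 8.65 at 60 min and 8.76, 8.84 and 9.05 at 120 min, above all arrays of 0, 20 and 40 min. The change was 0.77 ± 0.12 at 60 min (adjusted p = 0.00021) and 0.92 ± 0.12 at 120 min (adjusted p = 1.1e-05), levels 1.70-fold and 1.89-fold higher. With centred probesets these levels were 1.40-fold and 1.47-fold higher.

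At 240 min TOB2 was at 8.36, 8.53 and 8.35, and at 480 min at 8.55, 8.58 and 8.61, in both cases above all arrays of 0 min. Its change was 0.45 at 240 min (adjusted p = 0.011) and 0.62 at 480 min (adjusted p = 0.00064). The 240 min call was lost without array A of 0 min (0.32, adjusted p = 0.081) or array B of 240 min (0.39, adjusted p = 0.06). The difference between 240 and 120 min was -0.47 (adjusted p = 0.048), where 1.1% of genes were called lower, and it was lost in 5 of 6 refits without 1 array (adjusted p up to 0.26). From high to low the times ran 120, 60, 480, 240, 40, 20 and 0 min, and no neighbours differed past the test.

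Of the 7 kept TOB2 probesets, 6 were above 0 at 60, 120, 240 and 480 min. At 60 min 3 were called higher (2.94% of all probesets), at 120 min 4 (7.38%), at 240 min 1 (9.07%) and at 480 min 1 (10.5%). The largest change at 120 min was that of probeset 3961935, with 9.68 at 120 min and 8.45 at 0 min, while the brightest, 3961938, had the smallest, with 9.80 at 120 min and 9.83 at 0 min. The median change of the 7 was 0.50 at 60 min and 0.66 at 120 min, smaller than the 0.77 and 0.92 of the gene value. From 40 min on the time means of the gene value were those of probeset 3961936. At 0 min the gene value averaged 7.96 and that probeset 8.13. With centred probesets the changes were smaller, 0.48 at 60 min (adjusted p = 0.0015) and 0.56 at 120 min (adjusted p = 0.00012; 13.7% of genes called higher). Those of 240 min (0.23, adjusted p = 0.074) and 480 min (0.24, adjusted p = 0.053) then missed the threshold, and they did so too with dim probesets kept (adjusted p = 0.21 and 0.081). In the centred F-test all 5 genes passed (adjusted p = 1.3e-05 for BTG1, 3.5e-11 for BTG2, 0.00019 for BTG3, 1.2e-07 for TOB1 and 9e-06 for TOB2), as did 35% of all genes.

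**Figure D4:**
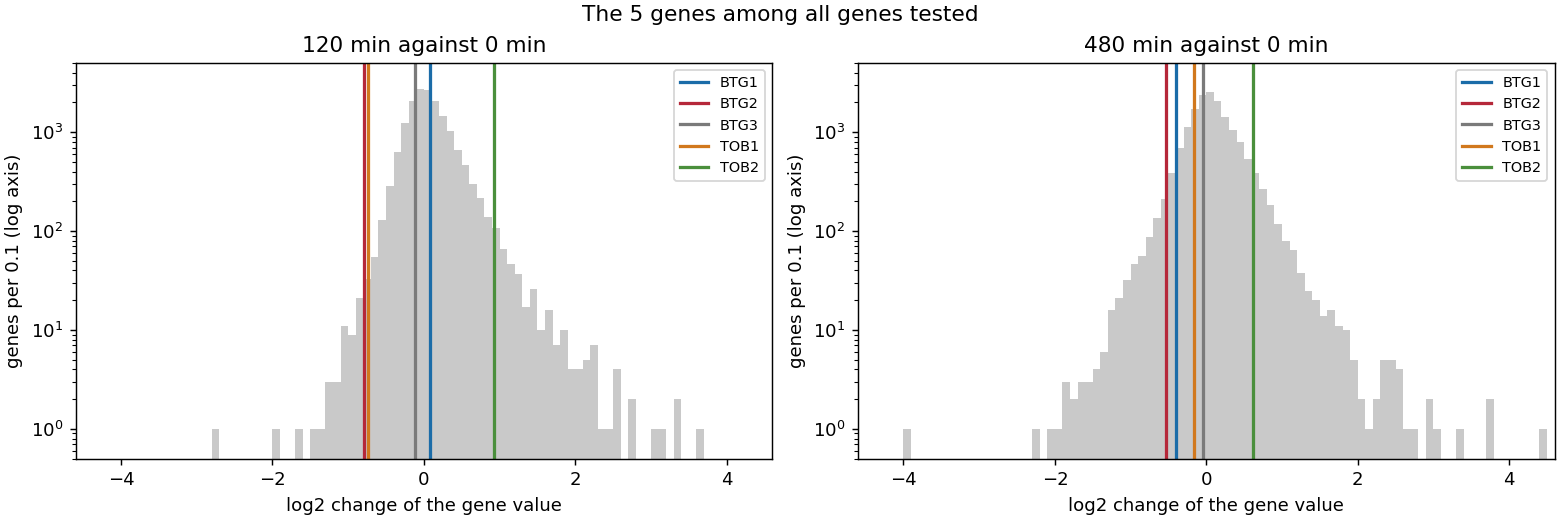
Number of genes per 0.1 of log2 change against 0 min (vertical log axis) over the change itself (horizontal axis), for 120 and 480 min, with a line at each of the 5 genes. At 120 min BTG2 (-0.79) and TOB1 (-0.73) lie in the sparse lower tail and TOB2 (0.92) in the upper one.

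Of 17 genes of the CCR4-NOT complex and other deadenylases, the machinery that BTG and TOB proteins act through, 4 passed the F-test, as did 27.5% of all genes. Against 0 min, limma called 3 higher and 2 lower at 120 min, 3 higher and 1 lower at 240 min, and 2 higher and 1 lower at 480 min, with a median change of 0.03, -0.01 and -0.0050 at those times, against 0.04, 0.02 and 0.05 over all genes. Of all genes, 11.2% were called higher and 3.21% lower at 120 min, 13.5% and 6.21% at 240 min, and 15.5% and 7.11% at 480 min. At 20, 40 and 60 min none of the 17 was called, and 6, 1 and 3 had an unadjusted p under 0.05. PAN2, the catalytic subunit of the PAN2-PAN3 deadenylase, was lower at 120 min (-0.35), 240 min (-0.86) and 480 min (-1.12; SE 0.11, adjusted p = 0.026, 3.4e-06 and 9.3e-08). CNOT8, a deadenylase that BTG and TOB proteins bind, was lower at 120 min (-0.43 ± 0.13, adjusted p = 0.025), and CNOT9, another CCR4-NOT subunit, was higher at 480 min (0.70 ± 0.13, adjusted p = 0.00054).

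Of 12 genes of decapping and 5′ to 3′ decay, 2 were called higher and 1 lower at 120 min and 4 higher and 1 lower at 480 min (all genes: 11.2% higher and 3.21% lower at 120 min, 15.5% and 7.11% at 480 min). GSPT1, a translation release factor, was among those higher at 480 min (0.82 ± 0.15, adjusted p = 4e-04), as were EIF4ENIF1 (0.34, adjusted p = 0.039), which carries eIF4E into the nucleus, and PATL1 (0.50, adjusted p = 0.008), a decapping cofactor. Of 13 measured partners and kinases of BTG and TOB proteins, 1 was called lower at 120 min (CNOT8; 3.21% of all genes) and 2 higher at 480 min (15.5% of all genes), among them the stress kinase MAPK14 (0.68 ± 0.15, adjusted p = 0.0026).

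Of 18 p53 targets other than BTG2, 5 were called higher at 20 min (0.897% of all genes were) and 5 at 40 min (1.82%). At 120 min 4 were called higher (11.2% of all genes) and 8 lower (3.21%), and at 480 min 2 were called higher (15.5%) and 9 lower (7.11%), with a median change of -0.29 at 480 min, against 0.05 over all genes. TP53INP1, a stress-induced p53 cofactor, was lower at 120 min (-0.90, adjusted p = 2.6e-05) and at 480 min (-1.28, 1.7e-07). XPC, a DNA damage sensor, fell by 0.72 at 120 min (adjusted p = 0.00045), while PLK3, a stress-responsive kinase, was higher throughout, with its largest change of 1.37 at 60 min (adjusted p = 4.1e-09). At 240 min, when BTG2 overlapped its 0 min values, 1 of the 18 was called higher (13.5% of all genes) and 6 lower (6.21%). The median change of the 18 was -0.20 at 120 min and -0.04 at 240 min, against 0.04 and 0.02 over all genes. TP53INP1 (-1.12) and XPC (-1.08) were among those called lower at 240 min.

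Of 18 FOXO targets and quiescence genes, 4 were called higher (4.82% of all genes) and 3 lower (0.975%) at 60 min. At 120 min 1 was called higher (11.2%) and 7 lower (3.21%), and at 480 min 1 higher (15.5%) and 12 lower (7.11%), with a median change of -0.73 at 480 min. FBXO32, a ubiquitin ligase gene, was lower at 120 min (-2.72, adjusted p = 1.2e-12) and at 480 min (-3.98, 4.8e-16), and TXNIP, an inhibitor of thioredoxin, had changes of -1.08 and -1.27 at those times (adjusted p = 1.4e-07 and 1e-08). CITED2, a transcriptional coregulator, was higher at 20 min (1.07, adjusted p = 2.1e-07) and lower at 480 min (-0.68, adjusted p = 1.8e-05). Of 23 measured G1 cyclins and genes of entry into S phase, 4 were called higher (11.2% of all genes) and 1 lower (3.21%) at 120 min, 5 higher (13.5%) and 5 lower (6.21%) at 240 min, and 10 higher (15.5%) at 480 min, with a median change of 0.35 at 480 min. CCND1, the D-type cyclin of G1, was higher by 0.92 at 480 min (adjusted p = 4.2e-06), CDK6, its kinase partner, by 1.18 (3.5e-05), and E2F3, an activator of S phase genes, by 0.85 (1.6e-05). MYC was not measured by 3 kept probesets. In the F-test, 7 of the 12 decapping and decay genes and 2 of the 13 partners and kinases passed. So did 15 of the 18 p53 targets, 13 of the 18 FOXO targets and quiescence genes and 11 of the 23 G1 and S phase genes. Of all genes, 27.5% passed.

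Among genes past the F-test, the time courses most like that of each gene were found by Pearson correlation over the 7 time means, which all rest on the same 21 arrays and are given as a description. Most like BTG2 were LOC646548 (0.95), GATAD2B (0.94) and RCOR3 (0.94), whose changes at 120 min were -0.28, -0.20 and -0.47. For TOB1 they were ZNF331 (0.97), RHOV (0.96) and ARRB2 (0.96), with changes of -0.33, -0.30 and -0.23 at 120 min. TOB2 was most like ENTPD7 (0.98), NFKB2 (0.98) and FASTKD5 (0.98), with changes of 0.61, 0.46 and 0.48 at 120 min. The genes most like BTG1 were HOXC13 (0.95), MAPKBP1 (0.94) and BICD2 (0.93), with changes of -0.54, -0.31 and -0.55 at 480 min, and those most like the nearly flat BTG3 value were GPX1 (0.91), NECTIN4 (0.88) and WEE1 (0.88). Every one of the genes named for BTG2 and TOB1 had a smaller change at 120 min than they did. Between the 5 genes themselves, the 10 correlations ran from -0.78 (BTG2 and TOB2) to 0.87 (BTG2 and BTG3, whose gene value did not pass the test). The correlation was 0.68 for BTG2 and TOB1, 0.61 for BTG3 and TOB1, -0.68 for BTG3 and TOB2 and -0.33 for TOB1 and TOB2, and those of BTG1 with the other genes lay between -0.29 and -0.07. All correlations with BTG3 rest on its gene value, which was close to probeset 3915525 alone. With centred probesets the change at 240 min was -0.45 for BTG3 and -0.06 for BTG2 (adjusted p = 0.00059 and 0.7). Correlations on the centred scale were not computed.

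Array medians over all probesets, named or not, lay between 20.44 and 20.56 intensity units on all 21 arrays, so the deposited values were on a common level by that measure. Setting the arrays to equal medians over the kept single-gene probesets gave 120 min changes of -0.88 for BTG2 and 0.83 for TOB2. Without that step they were -0.79 and 0.92. The array index, which sets the median log2 signal of probesets named for 1 gene against that of probesets with no name, averaged 1.27 to 1.32 at the EGF times and 1.24 at 0 min. The arrays measured pooled RNA of a culture, so fewer cells expressing a gene and less RNA per cell cannot be told apart, and an RNA level does not separate transcription from decay. Levels of the 5 genes were not compared with each other, because their probesets differ.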

How the data were processed

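The data were 21 exon arrays of MCF10A cells, 3 cultures at each of 7 times. The deposited values were linear intensities, 1 for each of 1384231 probesets on each array. PLIER and Affymetrix Expression Console 1.1 were used, per the submitters' processing notes, with settings that the sources used here do not give. The authors' values had nearly equal array medians.

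Probesets were named through the platform annotation, with symbols updated to the RefSeq table of GRCh38.p14. The scale was log2(intensity + 16). Probesets were kept at a mean of at least 5.18, the median of all probesets (20.2 intensity units), which kept 261183 single-gene probesets. Genes with at least 3 such probesets took their median as the gene value, giving 16614 genes. BTG1 kept 8 of 9 probesets, BTG2 6 of 7, BTG3 13 of 15, TOB1 13 of 14 and TOB2 7 of 9. A log2 change understates the change of dim genes.

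All 21 arrays entered 1 model with a mean per time in limma 3.58.1 (lmFit, eBayes; R 4.3.3, package data.table in version 1.17.8). Tests were two-sided, adjusted by Benjamini-Hochberg over all genes, or all kept probesets, within a contrast and called under 0.05. Residual degrees of freedom were 14 and prior ones 7.08. Values after ± are SE unless SD is named. The fit was tested on simulated data. Precision is limited by the number of arrays.

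The 5 genes, the related lists and the alternatives were chosen with earlier results of these data known. Named genes outside the 5 were the 3 most like each member and up to 3 per list with the smallest F-test p. The letters A, B and C were checked as pairs: correlations of same-letter deviations ran from -0.42 to 0.34, and 0 of 6 EGF times had all 3 over 0.1, so the letters were not used as pairs. Promoter sequences were taken from RefSeq; all 5 genes matched.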

Additional observations from a re-analysis of the deposited data

How the results depend on the processing

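The alternatives were quantile normalization, median centring of arrays, pseudocounts of 1 and 64, no filter on dim probesets or one at their 75th percentile, the mean of probesets, only the arrays of the times compared, the array index as a covariate, the replicate letter as a block and each array left out, and, chosen after seeing the data, centred probesets and the 2 runs of BTG3. The fall of BTG2 at 120 min (-1.49 to -0.65) and the rises of TOB2 at 60 (0.48 to 0.90) and 120 min (0.56 to 1.05) passed under every one of their 17 alternatives.

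The F-test of BTG1 was lost under quantile normalization (adjusted p = 0.061), median centring (0.08), pseudocount 1 (0.06) and the replicate block (0.072), and lay between 0.019 and 0.11 without 1 array. The F-test of BTG3 passed with no filter (0.0058), the 75th percentile filter (0.00027), the mean (5.2e-05), centred probesets (0.00019) and each run (3e-04 and 0.0024). BTG3 between 240 and 120 min changed sign with the 75th percentile filter (-0.59, adjusted p = 0.04). The cause of these shifts was not tested.

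Counts of the 5 genes called moved as follows. Without a filter they were 1 higher at 60 min, 0 higher and 1 lower at 240 min and 0 higher at 480 min. With the 75th percentile filter, or only the arrays compared, 1 was lower at 240 min. With the mean, 1 was higher at 20 min, 1 at 40 min and 2 at 120 min, and 2 were lower at 240 min. With the index covariate, 1 was higher at 60 min and 1 lower at 240 min. With centred probesets, 1 was higher at 20 min, 1 at 40 min, 0 at 240 min and 0 at 480 min, and 1 was lower at 240 min. By less, lower calls were 3 in place of 2 at 120 min with no filter or the mean, and at 480 min with the mean or centred probesets. The replicate block moved no count by over 1.5 times and ended the call of TOB2 between 240 and 120 min (adjusted p = 0.059); 11 of 21 arrays correlated best with their own letter, a hint from the data and not the design.

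Without 1 array, the change of BTG1 at 480 min ranged from -0.42 to -0.35 and that of TOB1 at 120 min from -0.88 to -0.58. The counts ranged from 1 to 2 higher at 60 min, 1 to 2 lower at 120 min, 0 to 1 higher at 240 min and 1 to 2 lower at 480 min.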

Other observations

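Probesets annotated to 2 genes entered no gene value. Both kept probesets named for TOB2 together with HNRNPAB were highest at 120 min, with means of 8.67 and 6.19 at 120 min, against 8.21 and 5.72 at 0 min. A probeset named for BTG3 together with CXADR was below the filter at every time, with means of 4.72 to 5.15.

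The probesets of BTG3 that were called lower at 240 min came from both of its runs of identifiers, 2 from the dimmer run (3915523 and 3915526) and 3 from the brighter one (3926094, 3926099 and 3926103).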
